A study of Mus musculus with 5 samples.

Results

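The 8 genes described here are the interleukin-1 family genes Il1a, Il1b, Il1rn, Il1r1, Il1r2, Il18, Il33 and Il1rl1, taken by symbol from the 31053 genes of the feature table. They were measured as unique molecular identifiers (UMIs, each counting 1 captured RNA molecule) by 10x Genomics 5-prime single-cell RNA sequencing of mouse hearts. Control hearts were Ctla4+/+Pdcd1-/- (4 mice, replicates 1 and 2) and disease hearts were Ctla4+/-Pdcd1-/- (10 mice, replicates 3, 4 and 5). The disease mice serve as a model of the myocarditis that immune checkpoint inhibitors can cause. Both groups lack Pdcd1, which encodes the checkpoint receptor PD-1, and the disease mice also lack 1 copy of Ctla4, which encodes the checkpoint receptor CTLA-4. The sample labels number the Pdcd gene and the DRAQ dye upwards from sample to sample, and the study's design text, followed here, names Pdcd1 and DRAQ5 alone. Hearts were digested and pooled before live nucleated cells were sorted with DRAQ5 and DAPI, so each library mixes several animals, and neither the ages nor the assignment of mice to libraries is given in the sources used here. With 2 and 3 libraries, the p-values below measure the spread between these pools.

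Interleukin-1 alpha and beta, encoded by Il1a and Il1b, are inflammatory cytokines that bind the same signalling receptor, encoded by Il1r1. Il1rn encodes the receptor antagonist, which occupies that receptor without signalling, and Il1r2 encodes a decoy receptor that binds the cytokines and does not signal. Interleukin-18 (Il18) and interleukin-33 (Il33) are relatives with receptors of their own, and Il1rl1 encodes ST2, the interleukin-33 receptor. Interleukin-1 beta and interleukin-18 are cut to their active forms by caspase-1 in inflammasomes, while interleukin-33 is stored in the nucleus and released from damaged cells.

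The genes lie on chromosomes 1, 2, 9 and 19 (GRCm38, GENCODE annotation). Il1r2 (1:40074079-40125231), Il1r1 (1:40225080-40317257) and Il1rl1 (1:40429570-40465415) follow each other on the plus strand of chromosome 1. Il1a (2:129299610-129309972) and Il1b (2:129364570-129371139) are neighbours on the minus strand of chromosome 2, with Il1rn (2:24336853-24351494) elsewhere on it. Il18 lies at 9:50554827-50581840 and Il33 at 19:29925114-29960718, both on the plus strand.

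Promoter windows of 300 bases (250 before to 50 after a start site, RefSeq, GRCm38.p6) were matched for all 8 genes, 13 windows in all. Shown are 4 of them, since 3 of them belong to cytokine genes with a TATA box near the start and 1 to the receptor gene whose start is rich in G and C. Each is printed 5′ to 3′ on the gene's strand, and capitals mark the motif letters found. They are Il1a at chr2:129309923-129310222 (minus strand), Il1b at chr2:129371090-129371389 (minus strand), the downstream start of Il33 at chr19:29945540-29945839 (plus strand) and the downstream start of Il1r1 at chr1:40266336-40266635 (plus strand).
Il1a: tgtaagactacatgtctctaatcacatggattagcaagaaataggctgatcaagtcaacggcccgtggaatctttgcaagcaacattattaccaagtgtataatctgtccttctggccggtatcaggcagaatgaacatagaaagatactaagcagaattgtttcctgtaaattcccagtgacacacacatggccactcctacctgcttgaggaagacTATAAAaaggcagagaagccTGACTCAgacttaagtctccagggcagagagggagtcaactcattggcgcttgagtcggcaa
Il1b: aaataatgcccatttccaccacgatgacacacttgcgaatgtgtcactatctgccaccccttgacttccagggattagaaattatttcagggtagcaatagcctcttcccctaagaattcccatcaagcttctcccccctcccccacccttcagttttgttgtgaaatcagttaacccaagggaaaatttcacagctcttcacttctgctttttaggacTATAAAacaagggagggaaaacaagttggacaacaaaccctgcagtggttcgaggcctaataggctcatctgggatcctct
Il33: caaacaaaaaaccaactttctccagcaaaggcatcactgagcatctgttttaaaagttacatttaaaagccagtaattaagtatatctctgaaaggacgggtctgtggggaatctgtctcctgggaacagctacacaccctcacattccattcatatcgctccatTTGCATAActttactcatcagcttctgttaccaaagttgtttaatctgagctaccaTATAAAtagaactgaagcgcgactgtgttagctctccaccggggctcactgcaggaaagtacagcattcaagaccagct
Il1r1: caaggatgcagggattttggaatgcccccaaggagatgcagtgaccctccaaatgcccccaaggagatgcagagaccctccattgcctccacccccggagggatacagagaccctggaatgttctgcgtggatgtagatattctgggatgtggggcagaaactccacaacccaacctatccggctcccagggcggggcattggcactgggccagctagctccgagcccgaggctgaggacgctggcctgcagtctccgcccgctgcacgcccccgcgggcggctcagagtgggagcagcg
The letters TATAAA begin at -32 from the start in Il1a, at -31 in Il1b and at -29 in this Il33 window. Searched on both strands, they occur in 6 of the 13 windows and in 13.6% of all 32851 windows of this length. The AP-1 letters TGANTCA are in 2 of the 13 windows, in Il1a at -12 and in the first Il1rn window at -141, against 7.81% of all windows. The C/EBP letters TTGCNNAA are in 3 windows, 1 each of Il33, Il1r1 and Il1rl1, against 10.8%. Neither the NF-kappaB consensus nor the PU.1 letters AGGAAGT occur in any of the 13, against 5.8% and 9.35% of all windows. The printed Il1r1 window is 63.3% G and C, and those of Il1a, Il1b and Il33 are 44.7%, 45.7% and 42.3%, where the median of all windows is 52.7%.

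The 5 libraries kept 5338 to 9158 cells each, 35838 in all, with median depths of 3319 to 4460 UMIs. Cells were assigned to 12 lineages by 8 marker genes each, none of them a gene of this family. All 8 markers were highest in their own lineage in 11 of the 12, and 7 of 8 in dendritic-like cells, as the gates themselves favour. Gated lineages are called "like" below, because they rest on these markers alone, and 3388 cells met no gate. Cell barcodes shared by 2 libraries numbered 86 to 161 per pair. Disease replicate 4 stood apart in its makeup: T-like cells were 24.0% of its cells and 1.46 to 7.58% elsewhere, and monocytes were 8.57% of its monocyte/macrophage-like cells against 1.96 to 3.24% elsewhere. Levels are in CPM, the usual depth-scaled unit: the UMIs of a gene scaled by the UMIs of all genes, summed over the cells of a lineage in a library. UMIs tag 1 end of each molecule, so no length scaling was applied, and levels are compared within a gene.

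The 8 genes divided between immune and stromal cells. Over all kept cells, Il1b gave 19663 UMIs, Il1r1 5620, Il1rn 4956, Il33 4221, Il1r2 2233, Il18 1318, Il1rl1 872 and Il1a 292. Monocyte/macrophage-like cells, 12.6% of the cells, held 90.1% of the Il1a UMIs, 76.2% of Il1b, 89.7% of Il1rn, 73.9% of Il18 and 57.7% of Il1rl1. Fibroblast-like cells, 26.5% of the cells, held 86.5% of the Il33 UMIs and 68.2% of Il1r1, and endothelial-like cells a further 20.1% of Il1r1. Il1r2 was the most divided, with 34.0% of its UMIs in neutrophil-like cells, which were 0.541% of the cells, 14.9% in monocyte/macrophage-like cells and 11.6% in T-like cells. Cells outside the gates held 25.3% of the Il1r2 and 27.5% of the Il1rl1 UMIs.

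**Figure D1:**
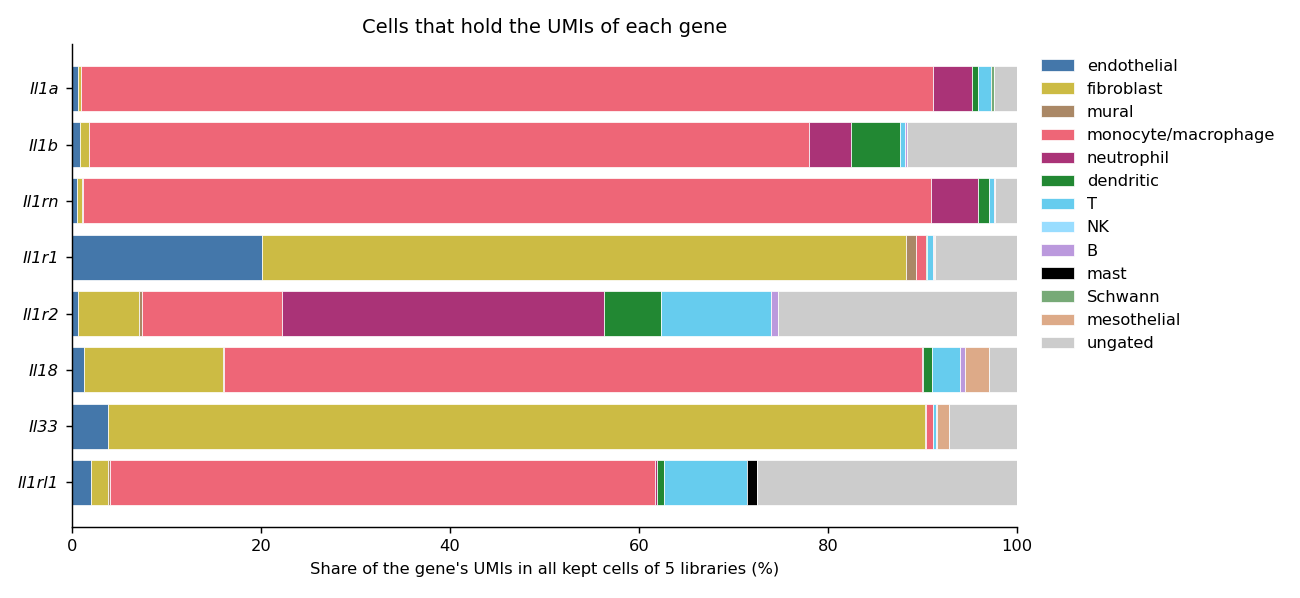
Share of each gene's UMIs (horizontal axis, percent of its UMIs over all kept cells of the 5 libraries) by gated lineage (colours, ungated cells in grey). Il1a, Il1b, Il1rn, Il18 and Il1rl1 sit mostly in monocyte/macrophage-like cells, Il33 and Il1r1 in fibroblast-like cells, and 34.0% of Il1r2 in neutrophil-like cells.

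Among the agonists, Il1b had its highest level in neutrophil-like cells, where the controls (replicates 1 and 2) gave 2806 and 2223 CPM and the disease libraries (3, 4 and 5) 1881, 1895 and 3453 CPM. Values are given in this order throughout. Monocyte/macrophage-like cells had 348 and 242 CPM in controls and 419, 623 and 538 CPM in disease. The 2 lineages' ranges did not overlap, and neutrophil-like cells were the higher in 5 of 5 libraries. Dendritic-like cells, only 5 to 43 a library, had 355 to 1293 CPM, above monocyte/macrophage-like cells in 4 of 5 libraries. All other lineages with at least 15 cells in every library had means of 10.1 CPM or less. For comparison with free RNA, Il1b in endothelial-like and fibroblast-like cells was 0.193% and 0.125% of its neutrophil level, where the neutrophil gene S100a8 was at 0.0102% and 0.00557% of its own. Il1b in monocyte/macrophage-like cells was at 20.7% of the neutrophil level, with S100a8 at 0.0995%. Against monocyte/macrophage-like cells, pooled Il1b was 4.46 CPM in endothelial-like and 2.88 CPM in fibroblast-like cells, where those cells had 477 CPM. The macrophage genes C1qa (53.0 and 30.2 against 6521 CPM) and Lyz2 (154 and 83.6 against 15088 CPM) were also present there. Whether the Il1b of stromal cells is free RNA was not tested.

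Within monocyte/macrophage-like cells, Il1b depended on the subset. Monocytes, gated by Ly6c2, Plac8, Ccr2 and related genes, had 1411 and 1131 CPM in controls and 1180, 1461 and 3230 CPM in disease, from 11 to 125 cells a library. Resident macrophages, gated by Timd4, Lyve1, Folr2 and related genes, had 224 and 162 CPM in controls and 268, 324 and 300 CPM in disease. Monocytes were above resident macrophages in each of the 5 libraries. CPM scales by the UMIs of all genes, and in UMIs per cell monocytes and dendritic-like cells were above neutrophil-like cells. Pooled, monocytes held 3666 Il1b UMIs in 200 cells, dendritic-like cells 1035 in 106 and neutrophil-like cells 865 in 194. Monocyte/macrophage-like cells as a whole held 14975 in 4504. With each cell thinned to 1000 UMIs, 57.5% of monocytes (95% Wilson interval 50.6 to 64.1%), 436 of 3358 resident macrophages and 72.5% of neutrophil-like cells had an Il1b UMI. The share in B-like cells, which should lack it, was 1.07%, with median depths of 10540.5, 5945, 1792 and 2586 UMIs in the 4 kinds of cell. Without thinning the shares were 83.5%, 27.0%, 78.4% and 2.43%.

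Il1a was sparse. Monocyte/macrophage-like cells held 263 of its 292 UMIs, at 6.22 and 6.37 CPM in controls and 8.23, 11.5 and 6.06 CPM in disease. Neutrophil-like cells held 12 UMIs (32.0 CPM, exact Poisson interval 16.5 to 55.9 for counting error only) and none in control replicate 1 or disease replicate 3. The order of these 2 lineages for Il1a therefore cannot be read from these libraries.

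The antagonist Il1rn was also highest in neutrophil-like cells by CPM. In UMIs per cell monocytes were higher, with 803 UMIs in 200 cells against 247 in 194 neutrophil-like cells. Neutrophil-like cells had 478 and 604 CPM in controls and 459, 819 and 775 CPM in disease. Monocyte/macrophage-like cells had 64.2 and 33.8 CPM in controls and 73.2, 248 and 139 CPM in disease, with no overlap between the 2 lineages. Dendritic-like cells, unlike for Il1b, lay below them on average, at 0 to 78.1 CPM from 58 UMIs. Of the other lineages with at least 15 cells in every library, B-like cells had the highest mean, 0.878 CPM. Disease replicate 4 alone gave 3101 of the 4956 Il1rn UMIs.

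The decoy receptor Il1r2 had its highest level in neutrophil-like cells, at 2583 and 1844 CPM in controls and 1583, 1911 and 2443 CPM in disease. In monocyte/macrophage-like cells it was at 5.67 to 15.7 CPM, and the neutrophil level was 122 to 455 times higher in each library. Within that lineage monocytes had 49.3 CPM, pooled. As a separate lineage, dendritic-like cells had 20.04 to 468 CPM from 135 UMIs (80.2 CPM pooled). Among T-like cells the level was highest in regulatory T cells: 209 CPM in Foxp3-positive cells (109 UMIs in 63 cells, 39 of them from disease replicate 4), 41.9 CPM in CD4 (40 UMIs) and 7.18 CPM in CD8 cells (97 UMIs), all pooled over libraries. Regulatory T cells of control replicate 2 and disease replicate 3, 2 cells each, had none. At 1000 UMIs a cell, 77.8% of neutrophil-like cells had an Il1r2 UMI against 0.804% of monocyte/macrophage-like cells.

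The signalling receptor Il1r1 was highest in fibroblast-like cells, then in mural-like and endothelial-like cells. Fibroblast-like cells had 78.3 and 80.6 CPM in controls and 50.8, 58.4 and 47.2 CPM in disease, above both other lineages in all 5 libraries. Mural-like cells (smooth muscle and pericytes) ranged from 19.8 to 42.3 CPM and endothelial-like cells from 22.2 to 33.6 CPM, and these 2 overlapped. Among endothelial-like cells, venous cells had 84.6 CPM (50 UMIs in 182 cells) and capillary cells 26.5 CPM, pooled, with venous higher in 5 of 5 libraries. Monocyte/macrophage-like and B-like cells averaged 2.08 and 1.24 CPM, and neutrophil-like cells had 2 UMIs.

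Il33, stored by barrier and stromal cells, was at 49.2 and 59.9 CPM in fibroblast-like cells of controls and at 63.1, 61.7 and 77.5 CPM in disease. Endothelial-like cells as a whole had 2.87 to 5.18 CPM. Small endothelial subsets were higher: 78.2 CPM in lymphatic (63 cells) and 64.3 CPM in venous cells (182 cells), pooled, against 1.63 CPM in capillary cells. The 30 mesothelial-like cells, which line the heart surface, had 209 CPM from 54 UMIs, with 191 to 235 CPM in the 4 libraries that held any. Il18 had the same site, at 132 CPM from 34 UMIs, while monocyte/macrophage-like cells had 26.1 to 35.1 CPM and fibroblast-like cells 2.50 to 3.79 CPM.

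The interleukin-33 receptor gene Il1rl1 was found in few cells of several kinds. Group 2 innate lymphoid cells, tissue lymphocytes known for ST2, were sought among ungated cells by Gata3, Areg, Il5, Il13 and related genes. The 19 cells found had 65 UMIs, or 791 and 469 CPM in controls and 583, 1173 and 1134 CPM in disease. All ungated cells together held 240 UMIs, so most of those lay outside this subset. The 8 mast-like cells had 9 UMIs. T-like cells held 77 UMIs, 32 of them in 248 CD4 cells. The CD4 cells had 33.5 CPM pooled (9.85 to 166 CPM by library), against 20.8 CPM in resident macrophages. More UMIs came from monocyte/macrophage-like cells, at 16.8 and 31.4 CPM in controls and 28.5, 8.42 and 15.9 CPM in disease, with 467 of their 503 UMIs in resident macrophages. Of the 423 monocyte/macrophage-like cells with an Il1rl1 UMI, 395 were resident macrophages and 5 had a Gata3 UMI. None had a UMI of Il5, Il13 or the mast cell gene Cpa3. Of the 4081 without an Il1rl1 UMI, 3038 were resident macrophages, 23 had a Gata3 UMI and 9 a UMI of Il5, Il13 or Cpa3. These marker counts are too small to compare, and carry-over of RNA from lymphoid or mast cells was not tested. B-like cells had no Il1rl1 UMI in 1121 thinned cells, which at 3 counts allows a share of cells with a UMI of up to 0.268% and sets no limit on cells expressing the gene, against 101 of 4354 thinned monocyte/macrophage-like cells (2.32%).

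**Figure D2:**
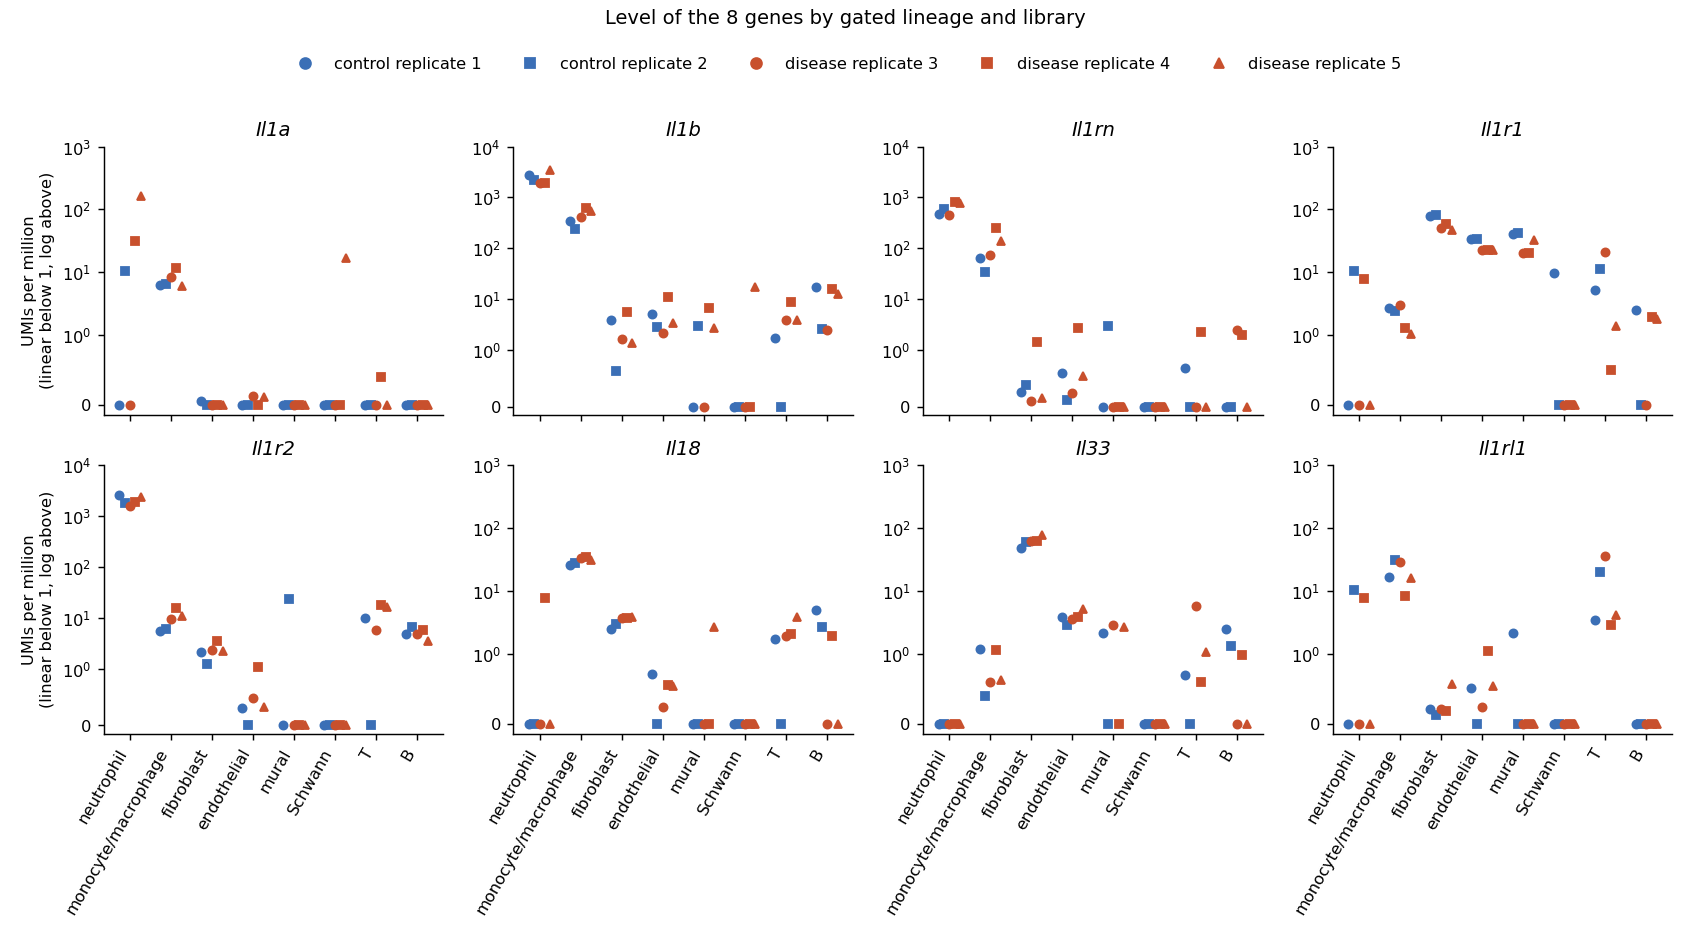
Level of the 8 genes (vertical axes, CPM of the lineage's UMIs in a library, linear below 1 and logarithmic above) in the 8 lineages with at least 15 cells in every library. Points are libraries, blue for control and red for disease: Il1b, Il1rn and Il1r2 peak in neutrophil-like cells, Il18 in monocyte/macrophage-like cells, and Il1r1 and Il33 in fibroblast-like cells.

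In an edgeR fit over the 6 lineages with at least 20 cells in every library, blocked by library, each lineage was set against the mean of the other 5. In monocyte/macrophage-like cells Il1b was higher by 7.02 ± 0.15 (log2, SE), Il1rn by 7.49 ± 0.16 and Il18 by 4.71 ± 0.18, each called at the adjusted p threshold of 0.05. In fibroblast-like cells Il33 was higher by 5.29 ± 0.14 and Il1r1 by 3.30 ± 0.18, and Il1r1 was also higher in mural-like (1.79 ± 0.40) and endothelial-like cells (1.69 ± 0.22). Lineages differ in many genes: 33.1%, 39.5%, 22.4% and 37% of the 12836 genes tested were called higher in these 4 lineages. Il1a and Il1rl1 have lineages with no UMI, so their fitted folds are not given. The other genes had few UMIs in some lineages. Mural-like cells held 3 of Il1b, 1 of Il1rn, 1 of Il18 and 3 of Il33, and B-like cells 3 of Il1rn, 3 of Il33 and 4 of Il1r1. The sizes of the folds above rest in part on these small counts. With neutrophil-like and Schwann-like cells added, neutrophil-like cells were higher than the mean of the other 7 by 8.23 ± 0.19 for Il1b, where 12.8% of 10299 genes were called higher. Il1b had 1 UMI in Schwann-like cells, so the size of its fold also rests in part on small counts. Il1rn and Il1r2 have no UMI in Schwann-like cells, so their folds in this fit are not given.

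Other genes shared these patterns over the 6 lineages, among the 11016 genes with at least 10 CPM in 1 lineage. By Pearson r of the mean log2 levels, with 6 points and no test, Il1b was closest to Clec4a3, Tifab and Alox5ap (0.998 to 0.999), and Il1rn to Hcar2, F630028O10Rik and Ms4a14 (0.9992 to 0.9999). Il1a was closest to Pla2g2d, Gm15964 and Mmp12, and Il18 to Pepd, Tep1 and Bcat2. Il33 was closest to Abi3bp, Igfbp6 and Cyp1b1 (0.996), and Il1r1 to Itfg2, Fam20a and Ss18l2. Il1r2 was closest to Mob3a, AI504432 and Taok3, and Il1rl1 to Iqgap2, Il10 and Ccl3. Between 18 and 195 genes reached an r of 0.95 with a member, so these names are a few of many.

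Comparing disease with control within lineages asks whether loss of 1 Ctla4 copy goes with a change in these genes. In the main fits 1 member was called, Il1r1, which was lower in disease in endothelial-like and in fibroblast-like cells. Il1b, Il1rn and Il1r2 were higher in all 3 disease libraries than in both controls in monocyte/macrophage-like cells but did not pass the adjusted threshold. In neutrophil-like cells none of the 3 was called, and the groups overlapped for each.

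Il1r1 in endothelial-like cells was 33.3 and 33.6 CPM in controls and 22.2, 22.6 and 22.8 CPM in disease. The groups did not overlap, as in 46.8% of the 12460 genes tested, and the log2 fold change was -0.64 ± 0.095 (SE; edgeR quasi-likelihood adjusted p = 0.0097), where 11.8% of genes were called lower. In fibroblast-like cells, with the levels given above, it was -0.65 ± 0.12 (adjusted p = 0.022), where 12.7% of 13164 genes were called lower and 48.8% did not overlap. The capillary subset gave -0.74 ± 0.10 (adjusted p = 0.0067), where 11.8% of 12138 genes were called lower. Mural-like cells gave -0.74 ± 0.39 (adjusted p = 0.36), with no overlap between the groups, as for 35.1% of 5423 genes. Leaving out control replicate 1 or 2 or disease replicate 5 ended the call in endothelial-like cells, with adjusted p up to 0.0699. In fibroblast-like cells leaving out any of these or disease replicate 3 ended it, with adjusted p up to 0.124.

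The Il1r1 call was lost when a trend with base composition was removed. In these libraries lower calls outnumbered higher ones, at 1476 to 44 in endothelial-like and 1678 to 49 in fibroblast-like cells. The first 300 nucleotides of Il1r1 transcripts are 64.3% G and C, and those of the other 7 members 45.3 to 50.0%. When the trend of each library with this GC content was removed, the Il1r1 fold change was -0.11 (adjusted p = 0.65) in endothelial-like and -0.09 (adjusted p = 0.81) in fibroblast-like cells. The calls then split 1010 lower to 408 higher and 1106 lower to 378 higher. The difference between the 2 lineages in this change was 0.12 ± 0.13 (edgeR interaction, adjusted p = 0.69), where 0.223% of 13921 genes were called.

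At 1000 UMIs a cell, Il1r1 was seen in 8.29 and 9.92% of fibroblast-like cells in controls and 5.76, 6.14 and 4.77% in disease. In endothelial-like cells the shares were 3.12 and 3.75% against 2.29, 2.08 and 2.22%. Both differences had a two-sided exact permutation p of 0.1, the smallest that 10 splits can give, and an adjusted p of 1 over the 40 tests of members and lineages.

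Il33 in fibroblast-like cells was higher in each disease library than in either control, as for 48.8% of genes there, with a log2 fold change of 0.27 ± 0.16 (edgeR adjusted p = 0.32). A subset gated by the adventitial markers Pi16, Dpp4 and related genes held 6609 of the 9484 fibroblast-like cells. No list for interstitial fibroblasts competed with it, so it is not taken as adventitial cells alone. In this subset the groups overlapped for Il33 (0.18 ± 0.18, edgeR adjusted p = 0.57), with control replicate 2 at 58.0 CPM and disease replicate 4 at 51.2 CPM. In endothelial-like cells the groups overlapped for Il33 too (0.27 ± 0.27, edgeR adjusted p = 0.58). Il18 in monocyte/macrophage-like cells was 26.1 and 28.3 CPM in controls and 32.9, 35.1 and 30.7 CPM in disease (0.40 ± 0.19, adjusted p = 0.33). Il1rl1 in the same cells overlapped between groups (-0.37 ± 0.46, adjusted p = 0.68), and disease replicate 4 was the lowest at 8.42 CPM. Il1a gave 0.61 ± 0.37 (adjusted p = 0.41). In T-like cells Il1b was at 1.72 and 0 CPM in controls and 3.85, 8.70 and 3.85 CPM in disease, levels near those of endothelial-like cells. These rest on 5 and 0 UMIs in controls and 2, 87 and 11 UMIs in disease. The log2 fold change was 2.03 ± 0.79 (edgeR adjusted p = 0.27). The groups did not overlap, as for 35.2% of 9627 genes, but this turns on a few molecules.

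In monocyte/macrophage-like cells Il1b had a log2 fold change of 0.95 ± 0.32 (edgeR adjusted p = 0.17). Il1rn had 1.77 ± 0.61 (adjusted p = 0.18) and Il1r2 1.20 ± 0.35 (adjusted p = 0.11). The groups did not overlap for any of the 3 after scaling, as for 38.6% of the 11103 genes tested, of which 0.0901% were called higher. Other settings did call them: DESeq2 called Il1rn (adjusted p = 0.025), leaving out disease replicate 3 called Il1rn and Il1r2 (0.033 and 0.047), and testing every gene with at least 1 count called all 3 (0.00090 to 0.049). The share of 0.0901% belongs to the main fit alone. DESeq2 called 38 genes higher and 789 lower in these cells, and the shares called higher in the other settings are not given here. Without disease replicate 4, which held 2860 of the 4448 Il1rn UMIs of these cells, the fold changes were 0.71 for Il1b and 1.10 for Il1rn (edgeR adjusted p = 0.25 and 0.23).

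The makeup of these cells differed between libraries, most in disease replicate 4. Resident macrophages were 80.4 and 88.8% of them in controls and 88.0, 62.2 and 79.4% in disease, so the groups overlapped. Cells of neither subset were not fitted on their own. Monocytes were 1.96 and 2.24% of monocyte/macrophage-like cells in controls and 2.82, 8.57 and 3.24% in disease. In resident macrophages alone, Il1b had 0.69 ± 0.25 (adjusted p = 0.18), Il1r2 1.37 ± 0.35 (adjusted p = 0.065) and Il1rn 1.46 ± 0.60 (adjusted p = 0.25). Il1b and Il1r2 still did not overlap between the groups there, as for 39.8% of 10651 genes, of which 7.61% were called, while Il1rn in disease replicate 3 (38.1 CPM) lay within the controls (31.4 and 46.6 CPM). In these resident macrophages Il1r2 was 4.46 and 2.21 CPM in controls and 9.10, 9.15 and 9.14 CPM in disease.

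**Figure D3:**
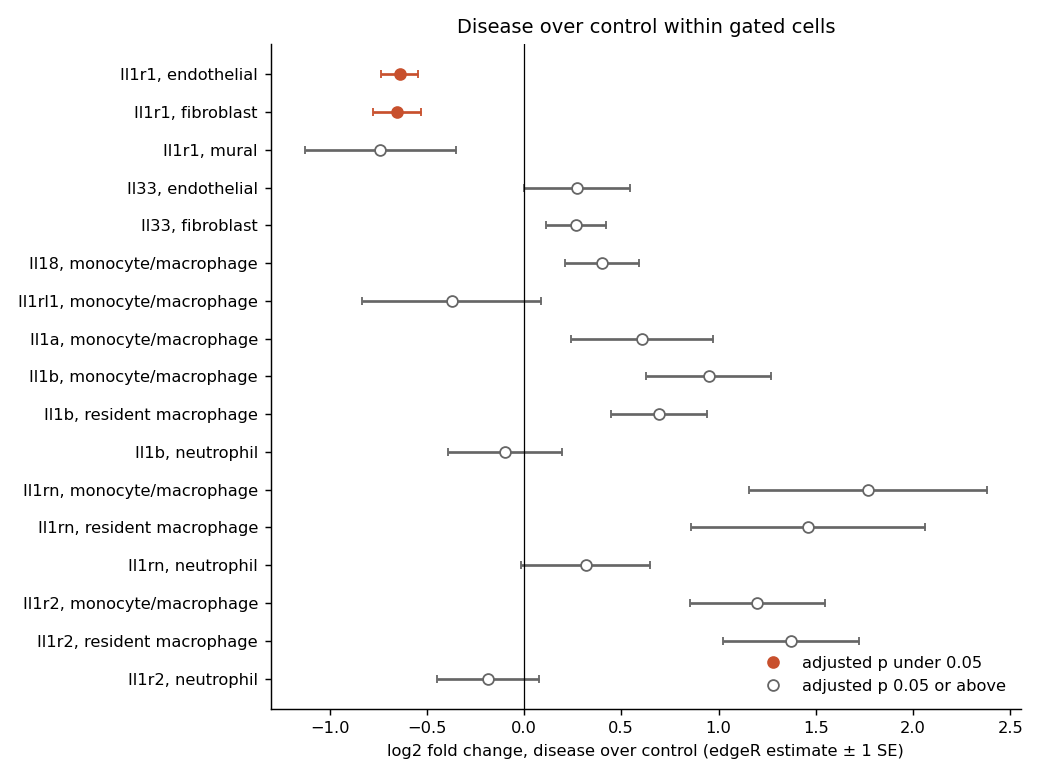
Log2 fold change of disease over control (horizontal axis, edgeR estimate with 1 SE) for members within gated cells. Filled red points, Il1r1 in endothelial-like and fibroblast-like cells, had an adjusted p under 0.05, and open points did not.

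In neutrophil-like cells, 19 to 71 a library and fitted although they are under the planned minimum of 50, the fold changes were -0.10 ± 0.29 for Il1b, 0.32 ± 0.33 for Il1rn and -0.18 ± 0.26 for Il1r2 (edgeR adjusted p = 0.95, 0.78 and 0.83). Of 960 genes tested there, 1.67% were called. The neutrophil level of Il1b was 8.07 and 9.17 times that of monocyte/macrophage-like cells in controls and 4.49, 3.04 and 6.42 times in disease. For Il1r2 it was 455 and 309 times in controls and 168, 122 and 225 times in disease. The difference of the disease effect between the 2 lineages was -1.28 ± 0.31 for Il1b and -1.55 ± 0.38 for Il1r2 (edgeR interaction, adjusted p = 0.031 for both) and -1.64 ± 0.42 for Il1rn (adjusted p = 0.060), where 0.178% of 9566 genes were called. Neither call held with a purer gate or without control replicate 1, control replicate 2 or disease replicate 4, and that for Il1b was also lost without disease replicate 3. An exact permutation test of the library ratios gave p = 0.2 for Il1b and 0.1 for Il1r2.

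**Figure D4:**
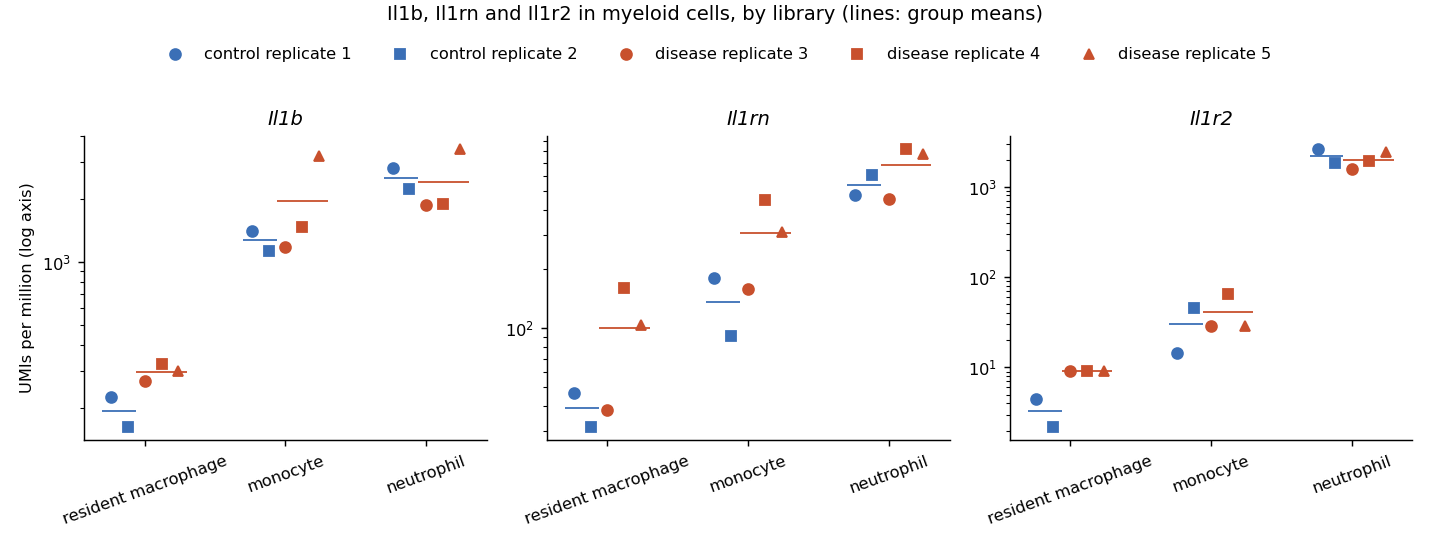
Level of Il1b, Il1rn and Il1r2 (vertical axes, CPM, logarithmic) in resident macrophages, monocytes and neutrophil-like cells. Points are libraries and lines group means: in resident macrophages Il1b and Il1r2 are higher in all 3 disease libraries than in both controls, and in neutrophil-like cells the groups overlap.

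The balance of antagonist and agonist was read as Il1rn UMIs per 100 Il1b UMIs. In monocyte/macrophage-like cells it was 18.5 and 14.0 in controls and 17.5, 39.8 and 25.8 in disease. Disease replicates 4 and 5 lay above both controls beyond their exact 95% intervals for counting error, and disease replicate 3 lay between the controls. The log2 ratio differed by 0.70 (two-sided exact permutation p = 0.3; adjusted p = 0.6 over 5 ratios). In resident macrophages alone the ratio was 20.8 and 19.4 in controls and 14.2, 49.6 and 34.6 in disease (difference 0.53, p = 0.5, exact permutation). Disease replicate 3 thus lay below both controls there. In neutrophil-like cells the ratio was 17.0 and 27.2 in controls and 24.4, 43.2 and 22.4 in disease (difference 0.42, p = 0.6, exact permutation). Il1r2 per 100 Il1r1 UMIs over all cells was 21.0 and 26.5 in controls and 18.9, 120 and 37.5 in disease, a difference of 0.90 (p = 0.6, exact permutation) that rests on disease replicate 4. Without it the difference was 0.18.

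**Figure D5:**
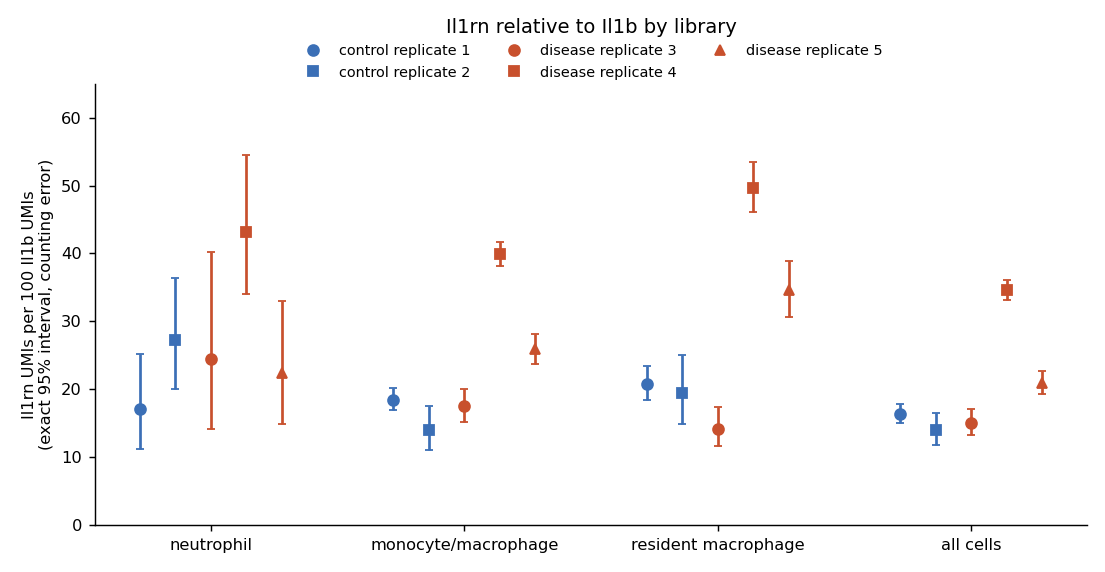
Il1rn UMIs per 100 Il1b UMIs (vertical axis, with exact 95% intervals for counting error) by library in 4 sets of cells. In monocyte/macrophage-like cells disease replicates 4 and 5, at 39.8 and 25.8, are above the controls at 18.5 and 14.0, and disease replicate 3, at 17.5, is between them. In resident macrophages disease replicate 3, at 14.2, is below both controls.

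Il1b and Il1rn were seen together in part of the thinned monocyte/macrophage-like cells. Of the 824 cells with an Il1b UMI, 13.3% also had an Il1rn UMI, against 4.84% of the other cells, and the share among Il1b cells was the higher in each of the 5 libraries. It ranged from 3.70% in control replicate 2 to 72 of 360 cells in disease replicate 4. These shares are a description of cells that differ in subset.

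Over all cells no member was called, where 6.56% of 16025 genes were. Il1r1 came closest, at 44.6 and 46.0 CPM in controls and 31.2, 20.2 and 27.1 CPM in disease (log2 fold change -0.76 ± 0.17, edgeR adjusted p = 0.070). DESeq2 called it (adjusted p = 0.011), as 1 of 1616 genes called lower in that setting. Its groups did not overlap, as for 38.5% of genes. Il1b gave 0.94 ± 0.57 and Il1rn 1.76 ± 0.94 (adjusted p = 0.48 and 0.44). In such sums fewer cells of a type and less RNA per cell cannot be told apart, and in disease replicate 4 endothelial-like and fibroblast-like cells were 22.4% and 19.7% of cells, the lowest of the 5 libraries.

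Genes that act with the family were taken from 5 lists of 55 genes. No gene on them was called higher in all cells or in endothelial-like, fibroblast-like, monocyte/macrophage-like, T-like or B-like cells. Called lower were 6 of 41 tested in endothelial-like cells, 3 of 44 in fibroblast-like cells, 1 of 42 in monocyte/macrophage-like cells, 2 of 26 in B-like cells and none of 35 in T-like cells, against backgrounds of 11.8%, 12.7%, 6.55%, 9.36% and 4.77%. Of the smaller lineages, mural-like cells had 1 called lower, Nfkbia, and Schwann-like cells, with 3 list genes tested, had Nfkbia lower and the chemokine gene Ccl2 higher, against backgrounds of 6.95% lower in mural-like and 5.35% lower and 0.0823% higher in Schwann-like cells. The medians of the tested list genes were 0.13, 0.19 and 0.27 (log2) in the first 3, and those of all genes 0.00, -0.01 and 0.01.

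Irak3, an inhibitor of the kinases below the receptor, was called lower in all cells and in endothelial-like, fibroblast-like, monocyte/macrophage-like and B-like cells. In fibroblast-like cells it fell by 1.43 on the log2 scale (SE 0.11, edgeR adjusted p = 0.000999) and in monocyte/macrophage-like cells by 1.93 (SE 0.28, edgeR adjusted p = 0.0098). With the GC trend removed these were -1.10 and -1.71 (adjusted p = 0.010 and 0.018). Nfkbia, the NF-kappaB inhibitor and an early interleukin-1 target, had -1.73 ± 0.31 in endothelial-like and -1.98 ± 0.30 in fibroblast-like cells (edgeR adjusted p = 0.020 and 0.011), and -1.39 and -1.62 with the GC trend removed. Traf6, the adaptor ligase of the pathway, had -0.91 and -0.95, and -0.48 and -0.49 with the trend removed, no longer called. In endothelial-like cells Nfkbiz, Nek7 and Peli1 were also called lower, and none of the 3 with the trend removed.

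None of the 9 inflammasome genes tested in monocyte/macrophage-like cells was called, while 1 of 8 in endothelial-like cells, Nek7, was called lower as given above. The 5 genes that follow were chosen after their values were seen, all with positive fold changes and none called in these cells, and do not stand for their lists. In monocyte/macrophage-like cells Nlrp3, the sensor that drives Il1b maturation, had 0.70 ± 0.31 (edgeR adjusted p = 0.29), Casp1 0.69 ± 0.35 and Gsdmd, the pore protein, 0.63 ± 0.36, and for each disease replicate 4 was the highest library. The median of all 9 inflammasome genes in these cells was 0.36. Among targets of interleukin-1 in fibroblast-like cells, Ccl2 had 0.70 ± 0.62 (edgeR adjusted p = 0.50) and Il6 0.36 ± 0.45 (adjusted p = 0.64), again with the highest level in disease replicate 4. The median of the 16 targets tested there was 0.35, and 1 of them, Nfkbia, was called lower as given above.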

How the data were processed

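Live nucleated heart cells were profiled in 5 libraries, 2 control and 3 disease. Each library was deposited as a sparse matrix of unnormalized UMI counts, written by version 3.1.0 of Cell Ranger according to the matrix header, and the submitters' processing notes name Cell Ranger 3, Seurat 3 and the builds mm10 and GRCh38. The aligned build per step is not given in the sources used here.

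Barcodes with at least 500 UMIs, 200 genes and at most 10% mitochondrial UMIs were kept, and predicted doublets (Scrublet in scanpy 1.11.5, the top scores at 0.8% per 1000 cells) were removed. A cell joined a lineage with at least 3 UMIs over at least 2 of its 8 markers and no other list above 25% of that sum. Counts were summed per library and lineage. Disease was compared with control by edgeR 4.0.16 (quasi-likelihood, TMM, Benjamini-Hochberg over all genes tested, threshold 0.05) in lineages with at least 50 cells in every library; fits at 15 cells were added after the cell numbers were seen. DESeq2 1.42.0, other filters and gates, removal of a GC trend and leaving out each library were alternatives. Shares of cells with a UMI were taken after thinning to 1000 UMIs, with 95% Wilson intervals, and single values were tested by two-sided exact permutation; intervals cover counting error only. The fits were tested on simulated data.

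The members and gene lists were chosen with earlier results of these data known. All 8 members are named, and of the gene lists at most 6 called genes a fit, by size of change. Outside this rule, Nlrp3, Casp1, Gsdmd, Ccl2 and Il6 are named with values that were not called, chosen after those values were seen. For each member the 3 genes of most similar level are named, by Pearson r of log2(CPM + 1) over lineages, among genes with at least 10 CPM in 1 lineage.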

Additional observations from a re-analysis of the deposited data

Results flagged for a closer look

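A test of the difference itself (edgeR interaction) gave a difference in the disease effect, neutrophil-like minus monocyte/macrophage-like cells, of -1.28 on the log2 scale for Il1b and -1.55 for Il1r2 (adjusted p = 0.031 for both). Both calls were lost with the purer gate (adjusted p = 0.41 and 0.38) and without control replicate 1, control replicate 2 or disease replicate 4 (adjusted p = 1 in each), and that for Il1b also without disease replicate 3. The exact permutation test of the library ratios gave p = 0.2 and 0.1, where 0.1 is the smallest possible. The cause was not tested.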

How the results depend on the processing

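Of 634 alternative values over 67 results, 531 kept their direction and side of the threshold or moved less than the limit set for them, 59 moved, 20 lost the call, 11 gained it and 13 changed sign. DESeq2 called 1665 genes in all cells (1051 by edgeR) and 1 member, and in monocyte/macrophage-like cells 1 member, Il1rn (1.81). Removal of the GC trend left 691 genes in all cells and 0 members in endothelial-like and fibroblast-like cells (Il1r1 -0.11 and -0.087). Testing every gene with at least 1 count called 1378 genes and 3 members in monocyte/macrophage-like cells (Il1b 0.96, Il1rn 1.78). For this and the other alternative settings, those that leave out 1 library included, the share of all genes called is not given here. Their counts of members called therefore have no background to be set against. For neutrophil minus monocyte/macrophage, the purer gate left 9 genes and 0 members (Il1b -1.20, Il1r2 -1.47), and the library ratios gave -0.95 and -1.17. The purer gate turned neutrophil Il1b to 0.055. The cause was not tested.

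Leaving out 1 library gave 123 to 1265 genes called in all cells, 786 to 1485 in endothelial-like, 805 to 1840 in fibroblast-like and 245 to 1091 in monocyte/macrophage-like cells, and 5 to 264 and 4 to 29 for the fibroblast minus endothelial and neutrophil minus monocyte/macrophage differences (31 and 17 with all libraries). Members called were 0 to 1 in endothelial-like and fibroblast-like cells, 0 to 2 in monocyte/macrophage-like cells and 0 to 2 for neutrophil minus monocyte/macrophage. Il1r1 ranged from -0.65 to -0.63 in endothelial-like and -0.75 to -0.60 in fibroblast-like cells, and in monocyte/macrophage-like cells Il1b from 0.60 to 1.32 and Il1rn from 1.10 to 2.41. The neutrophil difference ranged from -1.50 to -0.87 for Il1b and -1.72 to -0.9997 for Il1r2. Sign changed for all-cell Il1r2 (-0.46 to 0.78) and Il33 (-0.0014 to 0.31), resident macrophage Il1rl1 (-0.55 to 0.00047), neutrophil Il1b (-0.42 to 0.075) and Il1r2 (-0.42 to 0.068), and the fibroblast minus endothelial difference of Il1r1 (-0.15 to 0.13) and Il33 (-0.19 to 0.41). No paired analysis was possible because the sample labels give no pairing of control and disease libraries. Neutrophil-like cells, 19 in the smallest library, limit the precision there.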
